A study of Mus musculus with 6 samples.

Results

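The Fc gamma receptors, the ITAM adaptors, the kinase Syk and the neonatal Fc receptor were followed in mouse macrophages exposed to tumour-cell medium. The 9 genes were chosen by symbol and found in the deposited count table among 55421 genes: Fcgr1, Fcgr2b, Fcgr3, Fcgr4, Fcer1g, Tyrobp, Hcst, Syk and Fcgrt. All cells were wild-type primary macrophages grown from mouse bone marrow in RPMI-1640 with 10% fetal bovine serum, penicillin and streptomycin and 20 ng/mL macrophage colony-stimulating factor (M-CSF). The untreated group held 3 wells kept in that medium. The conditioned-medium group held 3 wells in which the medium was 50% LL-2 conditioned medium, that is, medium in which cells of LL-2, a mouse Lewis lung carcinoma line, had been kept. RNA was taken after 24 h from both groups. The sources used here do not state the age, sex or number of mice, or whether each well had its own donor mouse. The p-values therefore cover well-to-well spread only, which may be technical. Medium from a control cell type was not analysed here, and the mixing also changed the share of fresh medium so tumour-cell products and the mixing cannot be told apart.

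Fc gamma receptors bind the constant part of IgG and let macrophages engulf antibody-coated targets. Fcgr1, Fcgr3 and Fcgr4 encode activating receptors, whose ligand-binding chain sits in the membrane together with the chain encoded by Fcer1g. That chain carries an ITAM, a tyrosine motif that Src family kinases phosphorylate and on which Syk then docks. Fcgr2b encodes the inhibitory receptor, a single chain whose own tail carries the opposing motif, the ITIM, and recruits the lipid phosphatase encoded by Inpp5d. Tyrobp (also DAP12) encodes a further ITAM adaptor that serves receptors such as Trem2, and Hcst (also DAP10) encodes an adaptor without an ITAM that recruits phosphoinositide 3-kinase. Fcgrt encodes the heavy chain of the neonatal Fc receptor, which pairs with beta-2-microglobulin, binds IgG in acidic endosomes and returns it to the surface.

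Depth was 24179548 to 25916709 counts in the untreated and 28447825 to 30040682 counts in the conditioned-medium libraries. Levels below are CPM, a gene's counts per unit of library depth after TMM library scaling (3 counts make 0.1 to 0.124 CPM), and changes are log2 fold changes of conditioned medium over untreated from edgeR's quasi-likelihood test, with p-values adjusted over all 13853 tested genes and a threshold of 0.05. A second principal component set the wells numbered 3 of both groups apart from the others, and fold changes without these 2 wells are given beside each of the 9 genes. The macrophage label was checked against its markers, with Lyz2, Csf1r and Adgre1 among the abundant transcripts. The 10 listed markers summed to 52142 to 62827 CPM over the wells. Of these markers 3 were called higher (Itgam, Csf1r and Mertk) and 4 lower (Cd68, Adgre1, Aif1 and Cd63). The counts were 4 higher and 4 lower with the replicate number as a block. All 9 genes were expressed above the low-count filter. Of these, 3 were called higher, 3 were called lower and 3 were not called, and their median log2 fold change was -0.01, against 0.01 for all tested genes. Over all tested genes 27.9% were called, 12.6% higher and 15.2% lower. The wells of the groups did not overlap for 7 of the 9 genes, against 42.8% of all tested genes: 3 were higher, against 21.2%, and 4 lower, against 21.6%. With the replicate number as a block, 17.0% of all tested genes were called higher and 19.3% lower, and of the 9 genes 3 were higher and 4 lower.

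The receptor genes moved in different directions, and the activating ones did not move together. The inhibitory receptor gene Fcgr2b rose 2.15-fold and the activating Fcgr3 rose 1.58-fold, while the activating Fcgr1 fell 1.34-fold and Fcgr4 was 1.12-fold lower without passing the test. The adaptor genes Fcer1g and Tyrobp fell 1.23-fold and 1.12-fold, Syk and Hcst did not pass, and Fcgrt rose 2.15-fold. The plot of CPM by well shows each value. In these bulk libraries, fewer cells of a type and less RNA per cell cannot be told apart.

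**Figure D1:**
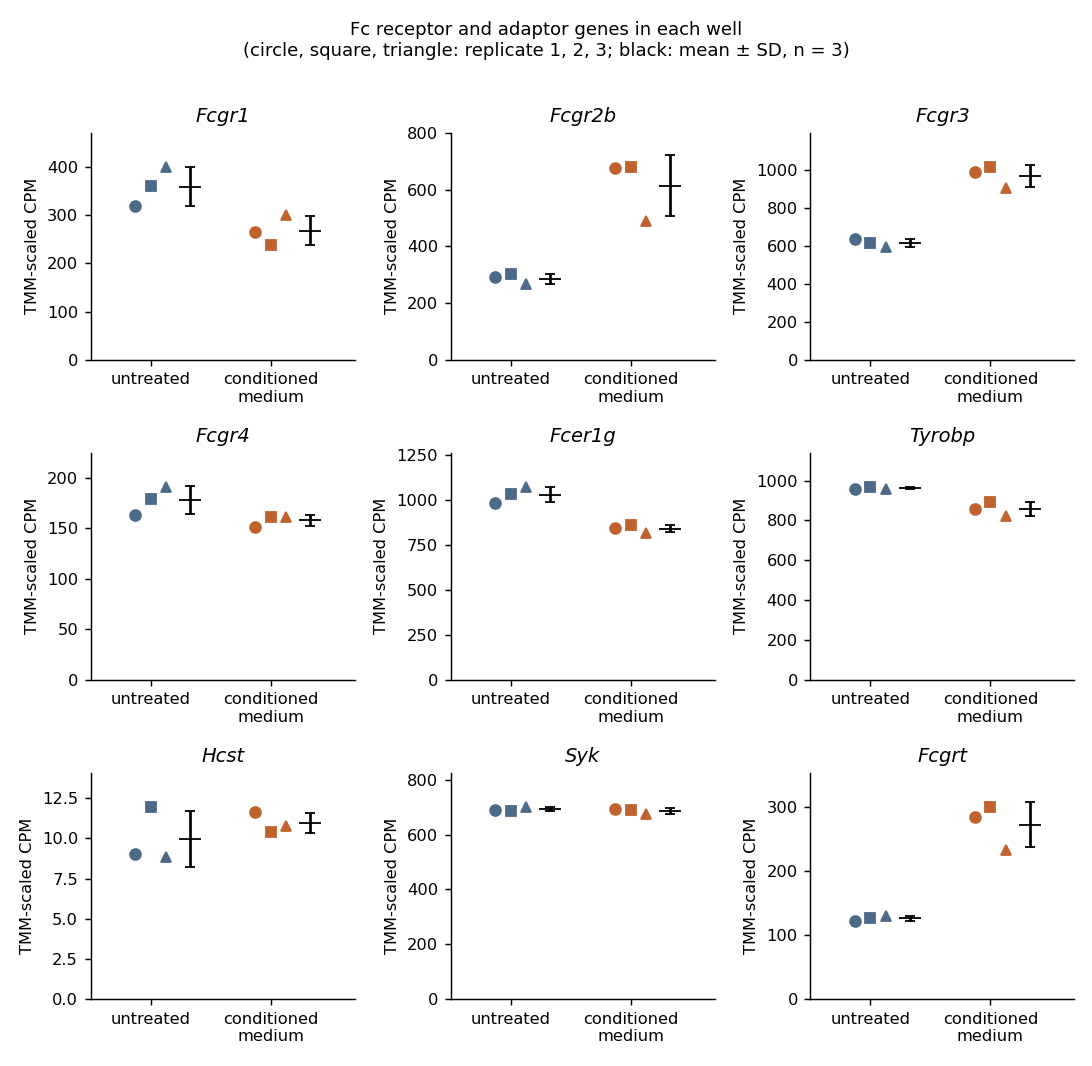
TMM-scaled CPM (vertical axis, from 0) of the 9 genes in the 3 untreated and 3 conditioned-medium wells, with each well as a point shaped by replicate number and the mean ± SD in black. The wells of the groups are fully separate for 7 genes and overlap for Hcst and Syk.

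Fcgr2b (ENSMUSG00000026656, chromosome 1, 170958617 to 170976547, minus strand, GRCm38) was measured at 290.2, 301 and 267 CPM in untreated wells 1 to 3. In conditioned-medium wells 1 to 3 it stood at 675, 679 and 489 CPM. Each treated well lay above each untreated well, and the treated well numbered 3 was the lowest of its group. The mean went from 286 ± 17.5 to 614 ± 108 CPM (SD, n = 3 per group), or 1.10 on the log2 scale (SE 0.11; adjusted p = 0.000125). Within same-numbered wells the log2 ratio was 1.22, 1.17 and 0.87. By log2 fold change the gene ranked 240 of 13853. Without both wells numbered 3 the log2 fold change was 1.19.

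Fcgr3 (ENSMUSG00000059498, chromosome 1, 171051174 to 171064935, minus strand) encodes a low-affinity activating receptor. Its untreated wells held 633, 616 and 592 CPM and its treated wells 987, 1013 and 903.5 CPM. The groups were separate, and the well numbered 3 was again the lowest of each group. The mean went from 614 ± 20.8 to 968 ± 57.1 CPM (n = 3 wells each, SD), and the fitted log2 fold change was 0.66 (adjusted p = 3.12e-05, SE 0.05), or 0.68 without both wells numbered 3.

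Fcgr2b and Fcgr3 lie close together and resemble each other in the exons for their IgG-binding domains, which bears on how surely reads were told apart. The longest run of bases shared by their principal GENCODE transcripts is 129 bases long. It lies in coding sequence and spans the junction of exons 3 and 4 in both, within chr1:170966674-170968081 for Fcgr2b and chr1:171054167-171057792 for Fcgr3 (GRCm38, minus strand). It is shown because a read inside it cannot be assigned to either gene:
Fcgr2b and Fcgr3 shared run: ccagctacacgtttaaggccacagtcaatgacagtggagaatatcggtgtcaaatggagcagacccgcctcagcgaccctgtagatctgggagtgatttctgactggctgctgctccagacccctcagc
Of all stretches of 50 bases in their transcripts, 2.92% of those of Fcgr2b also occur in Fcgr3 and 9.58% of those of Fcgr3 occur in Fcgr2b. At 100 bases the shares were 0.753% and 2.54%. Counting all other genes, the share for Fcgr2b was 6.95% at 50 bases. For the other 7 genes no stretch of 50 bases was shared with any other gene. How reads with several placements were handled is not given in the sources used here.

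Fcgr1 (ENSMUSG00000015947, chromosome 3, 96282909 to 96293969, minus strand) encodes the high-affinity IgG receptor. Untreated wells 1 to 3 held 319, 360.1 and 399 CPM, and treated wells held 266, 239 and 299.5 CPM. Every treated well was below every untreated well, although the highest treated well came close to the lowest untreated well. The mean fell from 359 ± 40.4 to 268 ± 30.5 CPM (n = 3 wells each, SD), and the fitted log2 fold change was -0.42 (SE 0.10, adjusted p = 0.00949). Within same-numbered wells the log2 ratio was -0.26, -0.59 and -0.42, and the fitted value without both wells numbered 3 was -0.43.

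Fcgr4 (ENSMUSG00000059089, chromosome 1, 171018920 to 171029761, plus strand) encodes the activating receptor best known for binding IgG2a and IgG2b. It lies between Fcgr2b and Fcgr3 on the opposite strand. Its untreated wells held 163, 179.7 and 191 CPM and its treated wells 152, 161 and 162 CPM. The groups were separate, but by only a few CPM. The mean was 178 ± 14.0 untreated and 158 ± 5.69 CPM treated (n = 3 wells each, SD), and the fitted log2 fold change was -0.17 (SE 0.06, 95% interval -0.31 to -0.03), at an adjusted p of 0.0655. With the replicate number as a block the adjusted p was 0.0046, with DESeq2 it was 0.0444, and without untreated replicate 1 it was 0.0189. Over the 13 alternatives it ran from 0.0046 to 0.196. The log2 fold change without both wells numbered 3 was -0.13.

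**Figure D2:**
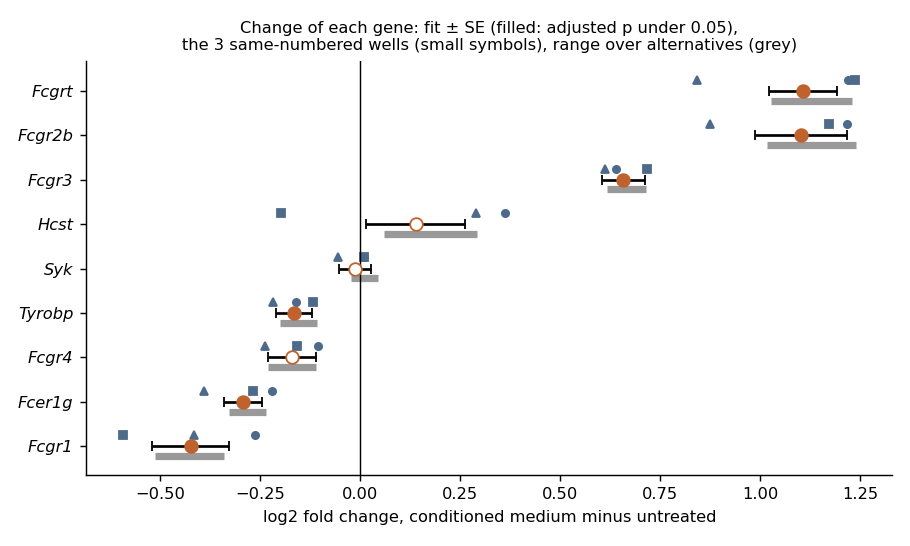
Log2 fold change of each gene (horizontal axis, conditioned medium minus untreated) with its SE, filled where the adjusted p is under 0.05, beside the 3 same-numbered log2 ratios and, in grey, the range over 13 alternatives. Fcgrt, Fcgr2b, Fcgr3 and Hcst lie to the right of 0 in every alternative, though Hcst was called in none. Fcgr1, Fcer1g, Fcgr4 and Tyrobp lie to the left, while the grey bar of Syk crosses 0.

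The 4 receptor genes were measured in the same wells, and their log2 fold changes differed in sign. The 250 bases before a RefSeq start site of each (GRCm38.p6) are therefore shown. Motifs were searched on both strands: the gamma-activated site (GAS, TTCNNNGAA), the interferon-stimulated response element (ISRE, which is GAAA, any 2 bases and GAAA again), a core of sites for the myeloid factor PU.1 (GAGGAA) and the TATA box (TATAAA). Capitals mark the matches, and no matches overlapped in these windows. The windows are chr3:96293970-96294219 (minus strand) for Fcgr1, chr1:171018676-171018925 (plus) for Fcgr4, chr1:170976072-170976321 (minus) for Fcgr2b and chr1:171059404-171059653 (minus) for Fcgr3:
Fcgr1: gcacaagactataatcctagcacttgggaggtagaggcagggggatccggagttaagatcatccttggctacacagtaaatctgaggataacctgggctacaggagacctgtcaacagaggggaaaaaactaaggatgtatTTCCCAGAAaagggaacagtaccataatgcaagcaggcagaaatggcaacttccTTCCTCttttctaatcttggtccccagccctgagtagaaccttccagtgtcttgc
Fcgr4: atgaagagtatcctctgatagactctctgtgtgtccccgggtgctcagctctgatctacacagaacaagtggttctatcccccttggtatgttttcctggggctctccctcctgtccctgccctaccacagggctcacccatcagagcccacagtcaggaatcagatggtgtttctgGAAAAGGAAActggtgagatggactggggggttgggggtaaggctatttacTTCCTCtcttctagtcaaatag
Fcgr2b: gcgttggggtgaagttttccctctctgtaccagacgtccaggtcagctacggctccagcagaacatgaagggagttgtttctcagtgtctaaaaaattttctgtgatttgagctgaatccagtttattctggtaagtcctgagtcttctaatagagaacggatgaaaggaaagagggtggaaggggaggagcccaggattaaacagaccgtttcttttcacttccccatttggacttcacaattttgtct
Fcgr3: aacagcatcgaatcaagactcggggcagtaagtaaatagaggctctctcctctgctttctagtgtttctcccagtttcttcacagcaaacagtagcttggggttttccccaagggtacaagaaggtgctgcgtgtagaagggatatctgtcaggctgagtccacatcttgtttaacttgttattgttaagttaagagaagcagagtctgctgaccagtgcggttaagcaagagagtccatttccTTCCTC
The Fcgr1 window held a GAS that began 109 bases before the start site and a PU.1 core, read on the other strand, at 55 bases before it. The Fcgr4 window held an ISRE at 73 and a PU.1 core at 22 bases before the start site, and the Fcgr3 window held a PU.1 core at 6 bases before it. Fcgr3 has a further RefSeq start site at 171059394, not shown, with the same core at 15 bases before it. The Fcgr3 and Fcgr2b windows lie inside the counted spans of their genes. The Fcgr2b window held none of these letters. Among 32851 RefSeq promoter windows of the same length, 7.02% held the GAS letters, 2.98% the ISRE letters, 23.3% the PU.1 letters and 12.4% the TATA letters. RefSeq windows were found for 8 of the 9 genes, and those of Fcer1g, Hcst and Fcgrt held no match, while 1 of the 2 windows of Syk held a PU.1 core.

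The balance of activating to inhibitory transcripts was read as a count ratio inside each library, which does not depend on library scaling. Fcgr1 counts over Fcgr2b counts were 1.10, 1.19 and 1.496 in untreated wells and 0.394, 0.352 and 0.612 in treated wells. This count ratio was above 1 in each untreated well and below 1 in each treated well. It is not scaled by exon length, so crossing 1 does not say which transcript was more abundant. Per kilobase of merged exons, Fcgr1 stood at 116 and Fcgr2b at 84.5 CPM in treated well 3. On the log2 scale the mean count ratio of Fcgr1 to Fcgr2b went from 0.32 ± 0.23 to -1.19 ± 0.42 (SD, n = 3 per group, two-sided exact permutation p = 0.1). Fcgr4 over Fcgr2b went from -0.69 ± 0.18 to -1.94 ± 0.30 on the same scale (SD, n = 3 per group; exact permutation p = 0.1), and no well of a group reached into the other. Fcgr3 over Fcgr2b went from 1.10 ± 0.06 to 0.67 ± 0.19 (SD, n = 3 per group; exact permutation p = 0.1), again without overlap. Each ratio was lower in 3 of 3 same-numbered pairs, by 2.85-fold for Fcgr1, 2.39-fold for Fcgr4 and 1.35-fold for Fcgr3. All 3 ratios share the Fcgr2b counts, and Fcgr2b itself rose 2.15-fold, so they are not separate readings of the balance. Fcgr4 by itself was 1.12-fold lower and not called. With 3 wells against 3 there are 20 splits, so 0.1 is the smallest p that this test can give, and it was also 0.1 after adjustment over the 3 ratios. The same-numbered log2 differences were -1.48, -1.76 and -1.29 for Fcgr1. They were -1.32, -1.33 and -1.11 for Fcgr4, and -0.58, -0.45 and -0.26 for Fcgr3. The treated well numbered 3 kept the highest ratio of its group in all 3 comparisons.

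**Figure D3:**
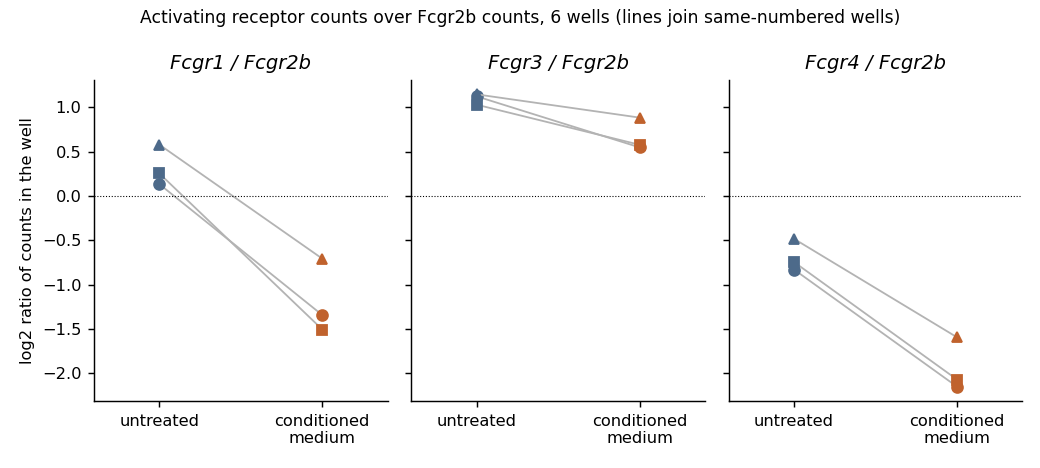
Log2 ratio of the counts of Fcgr1, Fcgr3 and Fcgr4 to those of Fcgr2b (vertical axis) in the 6 wells, with lines joining wells of the same number. All 9 lines go down from untreated to conditioned medium, and the treated wells of each panel lie below its untreated wells. The panels share the Fcgr2b counts of each well, so they are not separate readings.

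Scaled by merged exon length, Fcgr3 had the largest share of the receptor transcripts in each well. It took 51.8 ± 2.73% of the summed CPM per kilobase of the 4 receptor genes in untreated wells and 62.4 ± 1.05% in treated wells (SD, n = 3 per group). The share of Fcgr2b went from 7.24 ± 0.507% to 11.8 ± 1.64%, that of Fcgr1 from 20.3 ± 1.91% to 11.6 ± 1.83% and that of Fcgr4 from 20.7 ± 1.24% to 14.1 ± 0.953%. None of the 4 shares overlapped between the groups, while in level 42.8% of all tested genes did not overlap. The shares of a well are parts of a whole, so higher Fcgr3 and Fcgr2b levels lower the other shares. Fcgr4 by itself was 1.12-fold lower and not called. In untreated wells the shares of Fcgr1 and Fcgr4 did not differ beyond their spread. The summed level of the 4 genes went from 683 ± 13.6 to 893 ± 38.2 CPM per kilobase. The exon length of Fcgr2b, 5790 bases over all annotated transcripts, sets its place in this order. With the length of its principal transcript, 3544 bases, and those of the other genes, its share was 9.89 ± 0.619% and 15.4 ± 1.98%. The order of Fcgr1 and Fcgr2b in treated wells turned on this choice: their shares overlapped by merged exons, while by principal transcript Fcgr2b was higher in each well, with Fcgr1 at 9.29 ± 1.56%.

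**Figure D4:**
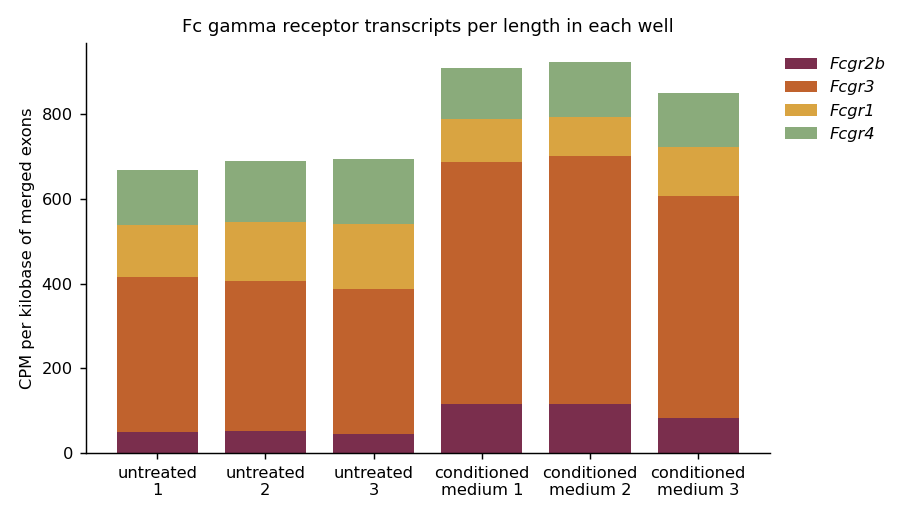
Summed CPM per kilobase of merged exons (vertical axis, from 0) of the 4 Fc gamma receptor genes in each of the 6 wells, stacked by gene. The untreated stacks reach 668 to 693 and the treated stacks 849 to 921, with a taller Fcgr3 and Fcgr2b part and a shorter Fcgr1 part in the treated wells.

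Fcer1g (ENSMUSG00000058715, chromosome 1, 171229572 to 171234365, minus strand) encodes the ITAM chain on which the 3 activating receptors depend for signalling. Its untreated wells held 983, 1033 and 1070.1 CPM and its treated wells 844, 858 and 817 CPM. The groups were well apart. Without both wells numbered 3 the log2 fold change was -0.24. The mean fell from 1029 ± 43.5 to 839 ± 21.1 CPM (n = 3 wells each, SD), and the fitted log2 fold change was -0.29 (SE 0.05, adjusted p = 0.00156). Per exon length, Fcer1g stood at 1.82, 1.86 and 1.89 times the sum of Fcgr1, Fcgr3 and Fcgr4 in untreated wells. In each treated well this ratio was 1.22. The adaptor transcript thus remained the more abundant, by a margin that was smaller in the treated wells.

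Tyrobp (ENSMUSG00000030579, chromosome 7, 30413760 to 30417585, plus strand) held 960.1, 967 and 957 CPM in untreated wells and 859, 891 and 822 CPM in treated wells. The untreated wells were nearly alike and each lay above the treated wells. The mean fell from 961 ± 5.05 to 857 ± 34.6 CPM (n = 3 wells each, SD), and the fitted log2 fold change was -0.16 (SE 0.04, adjusted p = 0.0226). That call was lost with scaling by total count alone (adjusted p = 0.0837). It was also lost without untreated replicate 1 (0.0641), untreated replicate 2 (0.0839), conditioned-medium replicate 1 (0.0841) or conditioned-medium replicate 3 (0.0504). The log2 fold change itself was -0.17, -0.16, -0.17 and -0.14 without these libraries, in that order, and -0.14 without both wells numbered 3, where the gene was called (adjusted p = 0.0184).

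Hcst (ENSMUSG00000064109, chromosome 7, 30417712 to 30419854, minus strand) was the scarcest of the 9, at 9.03, 11.9 and 8.82 CPM untreated and 11.6, 10.4 and 10.8 CPM treated. The groups overlapped, with the untreated well numbered 2 above all treated wells. The log2 fold change was 0.14 (SE 0.12, 95% interval -0.14 to 0.42, adjusted p = 0.45). It was 0.29 without untreated replicate 2, 0.06 without untreated replicate 3, 0.07 without untreated replicate 1, 0.09 without conditioned-medium replicate 1 and 0.07 without both wells numbered 3, and was called in none of these. Hcst and Tyrobp face each other with 126 bases between their 3′ ends. Per merged exon length, Tyrobp stood 87.7 to 117 times higher in untreated wells and 80.1 to 92.7 times higher in treated wells. By principal transcript length it stood 63.5 to 85.0 and 58.0 to 67.1 times higher. Whether counting used strand is not given in the sources used here, and a contribution of Tyrobp reads to the Hcst count was not tested.

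Syk (ENSMUSG00000021457, chromosome 13, 52583173 to 52648792, plus strand) held 690.1, 686 and 699.6 CPM untreated and 694, 689.8 and 673 CPM treated. The 6 wells lay within a narrow band and the groups overlapped. The log2 fold change was -0.01 (SE 0.04, 95% interval -0.10 to 0.08, adjusted p = 0.845). Its sign changed with scaling by total count alone (0.05) and in 2 other alternatives, among them the fit without both wells numbered 3 (0.0088).

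Fcgrt (ENSMUSG00000003420, chromosome 7, 45092990 to 45103851, minus strand) rose as much as Fcgr2b. Its untreated wells held 122, 127 and 129.99 CPM and its treated wells 285, 299.5 and 233 CPM. The treated well numbered 3 was the lowest of its group, as for Fcgr2b, and all treated wells were far above the untreated wells. The mean went from 126 ± 3.85 to 272 ± 35.0 CPM (n = 3 wells each, SD), and the fitted log2 fold change was 1.11 (SE 0.08, adjusted p = 2.15e-05), which became 1.23 without both wells numbered 3. The partner chain gene B2m fell 1.30-fold, from 3873 ± 231 to 2977 ± 58.0 CPM (adjusted p = 0.00075). Per exon length, Fcgrt stood at 1.34 ± 0.041% of B2m in untreated wells and 3.75 ± 0.521% in treated wells (SD, n = 3 per group).

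The lists and marker sets that follow are to be read beside all 13853 tested genes, of which 12.6% were called higher and 15.2% lower. The replicate block called 17.0% higher and 19.3% lower. Scaling by total count alone called 2656 of the 13853 genes higher and 1710 lower. Other Fc receptor and immunoglobulin-binding genes were mostly lower. Of 14 listed, 9 were tested, 7 fell and 1 rose, with a median log2 fold change of -0.61. Those that fell were Fcrl5, Ms4a2, Fcmr, Fcrl1, Trim21, Lgals3 and B2m. B2m is listed as the partner chain gene of Fcgrt, and Ms4a2 is also among the mast cell and basophil markers below. Scaling by total count alone left 6 lower and 1 higher, and without 1 library 5 to 7 of 10 tested fell. Fcrl5, an Fc receptor-like gene, fell 16.8-fold from 4.73 ± 1.66 to 0.275 ± 0.212 CPM (adjusted p = 0.000196). Ms4a2, the beta chain of the IgE receptor, fell 3.56-fold to 0.351 ± 0.274 CPM (adjusted p = 0.0301), and Fcmr, the IgM receptor gene, fell 1.94-fold (adjusted p = 0.0437). These 3 genes were scarce in all wells. The gene that rose was Fcrls, an Fc receptor-like scavenger receptor gene, from 351 ± 34.2 to 533 ± 35.3 CPM (adjusted p = 0.000357).

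Among receptors that signal through ITAM adaptors, 6 of 23 tested rose and 6 fell, with a median of 0.00, and when blocked by replicate 8 rose and 8 fell. Clec4n (also Dectin-2), a fungal lectin receptor that uses the Fcer1g chain, rose 4.61-fold from 79.2 ± 8.02 to 366 ± 22.1 CPM (adjusted p = 2.85e-07). Trem2, a lipid receptor that uses Tyrobp, fell 1.66-fold from 651 ± 37.8 to 392 ± 25.2 CPM (adjusted p = 3.3e-05). Klrk1, which encodes NKG2D, a partner of Hcst, fell 4.16-fold from 2.59 ± 0.399 CPM (adjusted p = 0.00133). Trem1, another Tyrobp partner, rose 2.84-fold from only 0.286 ± 0.104 CPM (adjusted p = 0.0121). Genes that share an adaptor thus moved in both directions.

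The kinases that act first on the ITAM were lower or not called. Of 7 tested Src family kinase genes, 3 fell and 0 rose, with a median of -0.39, and 4 fell when blocked by replicate. Src went from 30.5 ± 3.44 to 12.7 ± 2.09 CPM (adjusted p = 8.29e-05), Fgr from 95.8 ± 3.83 to 70.4 ± 0.293 CPM (adjusted p = 9.36e-05) and Fyn from 23.5 ± 0.567 to 17.9 ± 0.571 CPM (adjusted p = 0.00116). The more abundant Lyn stood at -0.03 on the log2 scale (SE 0.06; adjusted p = 0.764).

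Below Syk, 10 of 27 tested genes that carry the signal onward fell and 5 rose, with a median of -0.12, and 15 fell when blocked by replicate. With scaling by total count alone, 9 fell and 7 rose. Lat2, an adaptor that Syk phosphorylates, fell 2.43-fold from 127 ± 4.98 to 52.3 ± 3.92 CPM (adjusted p = 1.16e-06). Lat2 shares 36.3% of its exon bases with Rfc2 on the opposite strand, so its count is uncertain. Malt1, a paracaspase of the Card9 complex, fell 1.80-fold (adjusted p = 2.78e-05) and the adaptor Blnk fell 1.64-fold, from 116 ± 6.74 to 70.6 ± 5.36 CPM (adjusted p = 5.68e-05). Btk, a kinase of the same step, stood at -0.03 on the log2 scale (SE 0.04; adjusted p = 0.671). Plcg2, the phospholipase that Btk activates, had one of -0.17 (SE 0.06, adjusted p = 0.056, or 0.00477 when blocked by replicate).

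Of 18 tested inhibitors of ITAM signalling, 7 fell and 3 rose, with a median of -0.12. When blocked by replicate 7 fell and 5 rose, and with scaling by total count alone 6 fell and 5 rose. The phosphatase gene Ptpn6 (SHP-1) fell 1.52-fold from 536 ± 39.9 to 353 ± 14.9 CPM (adjusted p = 0.000103). Ubash3b, a phosphatase that acts on Syk, fell 1.65-fold (adjusted p = 3.24e-05), and the ubiquitin ligase gene Cblb fell 1.53-fold (adjusted p = 2.67e-05). Inpp5d, the phosphatase gene recruited by Fcgr2b, held 321 ± 19.4 and 346 ± 6.41 CPM, with a log2 fold change of 0.11 (SE 0.05, 95% interval -0.01 to 0.22, adjusted p = 0.161).

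Of 18 other tested receptors with inhibitory motifs, 9 fell and 3 rose, with a median of -0.28. The replicate block gave 9 lower and 4 higher, and scaling by total count alone gave 7 lower and 5 higher. Cd72 fell 3.50-fold from 218 ± 17.9 to 62.1 ± 10.7 CPM (adjusted p = 5.74e-06), though 41.6% of its exon bases are shared with Tesk1 on the opposite strand and its count is uncertain. Clec12a fell 2.28-fold from 414 ± 27.5 to 181 ± 10.9 CPM (adjusted p = 2.27e-06). Pecam1 rose 2.19-fold from 10.8 ± 3.16 to 23.6 ± 9.05 CPM (adjusted p = 0.0194). The difference between Fcgr2b and this list was not tested.

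Of 23 tested actin regulators of the phagocytic cup, 12 fell and 1 rose, with a median of -0.17. When blocked by replicate 14 fell and 2 rose, and with scaling by total count alone 10 fell and 3 rose. Actr3, a subunit of the Arp complex, fell 1.38-fold from 991 ± 27.7 to 718 ± 39.8 CPM (adjusted p = 0.000186). Dock8, an exchange factor for Cdc42, fell 1.38-fold (adjusted p = 0.000175), and the myosin gene Myo1f fell 1.35-fold (adjusted p = 6.61e-05).

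Of 20 factors and cytokine receptors known to regulate Fc receptor genes, 7 rose and 5 fell, with a median of -0.04 that became 0.02 with scaling by total count alone, and 8 rose and 8 fell when blocked by replicate. Il4ra, the interleukin-4 receptor chain gene, rose 1.69-fold from 145 ± 5.23 to 245 ± 6.02 CPM (adjusted p = 4.56e-06), and Tgfbr1 fell 1.45-fold (adjusted p = 0.000426). C5ar1, the receptor gene for complement C5a, rose from 294 ± 7.16 to 426 ± 15.2 CPM. Spi1, which encodes PU.1, stood at -0.13 on the log2 scale (SE 0.06; adjusted p = 0.152, or 0.0168 when blocked by replicate). C5ar1 and Spi1 were chosen for mention after their values were seen.

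**Figure D5:**
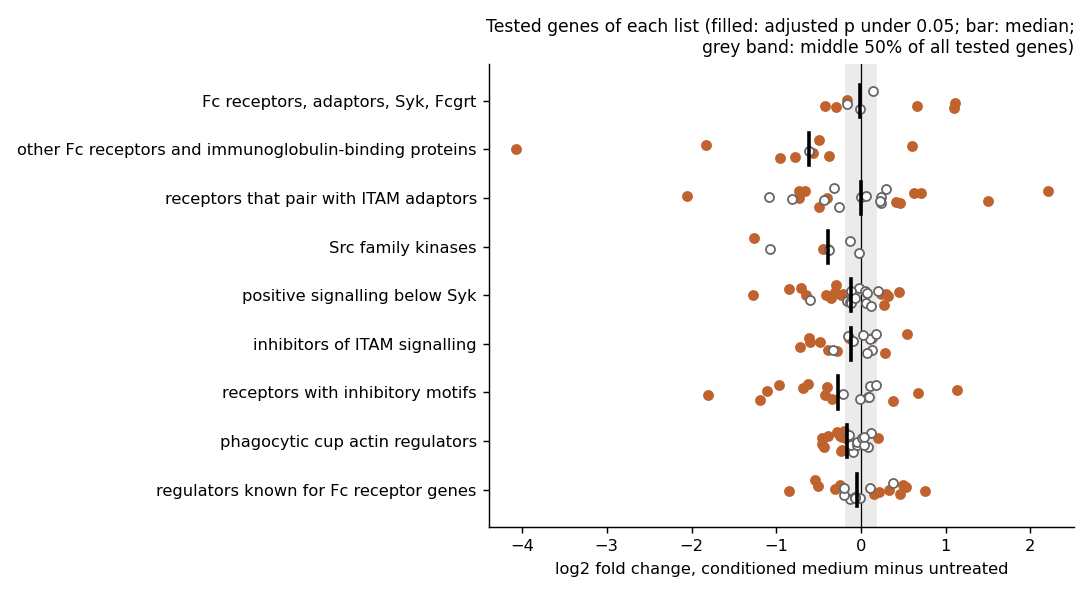
Log2 fold change (horizontal axis) of every tested gene of the 9 genes and of 8 further lists, filled where the adjusted p is under 0.05, with each list's median as a bar and the middle 50% of all tested genes as a grey band. The medians run from -0.61 for other Fc receptors to 0.00 for receptors that pair with ITAM adaptors.

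By the likeness of their profiles over the 6 wells, measured as the root mean square difference of centred log2 values among 9275 genes, the nearest to Fcgr2b were Trf, the transferrin gene (0.06), and Ppp1r9a (0.09). Nearest to Fcgr3 were Fchsd2 (0.03) and Mrc1, the mannose receptor gene (0.04). Nearest to Fcgr1 was Stard3 (0.03), and nearest to Fcgr4 were Pde4dip (0.02) and Mdh2 (0.02). The profiles of Fcgr1, Fcgr2b, Fcgr3 and Fcgr4 themselves spread by 0.25, 0.57, 0.33 and 0.11 on that scale. These distances are descriptions over 6 wells in 2 groups.

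Several of the genes are also used by other blood cells, whose markers were read in the same wells. The 8 B cell markers, which include Cd22, summed to 60.4 to 81.3 CPM untreated and 32.0 to 51.7 CPM treated, with 2 of 7 tested lower. The 9 mast cell and basophil markers, which include Ms4a2, summed to 25.5 to 33.8 and 14.4 to 20.1 CPM. Of 7 tested, 6 fell and 1 rose. The 10 neutrophil markers summed to 419 to 619 and 509 to 601 CPM (2 rose and 2 fell, or 6 and 3 when blocked by replicate), and the 10 T and NK cell markers to 1.04 to 1.98 and 1.03 to 1.25 CPM (0 of 2 tested called, or 1 lower when blocked). The 8 dendritic cell markers summed to 21.7 to 31.0 and 10.7 to 16.7 CPM (4 of 7 tested lower, or 5 when blocked), and the 9 carcinoma and fibroblast markers to 15.0 to 64.2 and 28.7 to 88.1 CPM (0 of 5 tested called, or 3 higher when blocked). No listed marker was at 0 in all 6 wells. The part of these cells in the changes above was not tested.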

How the data were processed

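Poly(A) RNA was captured on oligo(dT) beads, with random hexamers as primers, per the labels' protocols. The values deposited are whole-number counts for each gene, beside exon coordinates and length. The authors aligned with HISAT2 to GRCm38 and counted with featureCounts, per the submitters' processing notes. Versions, strand setting and annotation release were not given in the sources used here. Symbols came from GENCODE M21 by Ensembl identifier (55240 of 55421 genes matched; the others held 0.0017% of counts). Genes were kept by filterByExpr, scaled by TMM and compared by edgeR's quasi-likelihood test on the group alone (edgeR 4.0.16, R 4.3.3), with Benjamini-Hochberg adjustment. SE and 95% intervals were derived from the F statistic. Levels between genes use CPM per kilobase of merged exons unless the principal transcript is named. A count of 0 allows up to 3 counts, or 0.1 to 0.124 CPM before TMM scaling, for counting error only. The code was checked on simulated data.

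Samples were grouped by their title. The replicate numbers are shared by the groups and the labels do not say what they mark. Deviations from the group means correlated by 0.402, 0.233 and 0.446 for wells of the same number. For wells of unlike number the correlations ran from -0.397 to 0.101. A fit with this number as a block is therefore given where it changes a reported call or a reported count of calls. The tests reported first, and the permutation tests, do not pair the wells. The genes and lists were chosen with earlier results of these data known. Named genes are all 9, the 3 largest called changes of each list (or the smallest p where none was called), Lyn, Fgr, Inpp5d, Ptpn6, Plcg2, Btk, Blnk, B2m and Trem2, and the 2 nearest profiles of each Fc gamma receptor gene. A few genes that this rule names are not reported here. Profiles used log2(CPM + 0.5) and genes with a mean of at least 5 CPM. Alternatives were RLE scaling, total-count scaling, no low-count filter, DESeq2 1.42.0, limma-voom (limma 3.58.1), leaving out each library in turn and the replicate block. Leaving out both wells numbered 3 was added after the data were seen, as were the lengths of principal transcripts.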

Additional observations from a re-analysis of the deposited data

How the results depend on the processing

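Fcgr1, Fcgr2b, Fcgr3, Fcer1g and Fcgrt kept their direction and their call in all 13 alternatives, with log2 fold changes of -0.51 to -0.34, 1.02 to 1.24, 0.62 to 0.71, -0.33 to -0.24 and 1.03 to 1.23. The calls of Tyrobp and Fcgr4 depended on the setting, as given beside them. Syk, never called, turned from -0.01 to 0.045 with scaling by total count, 0.0043 without the low-count filter and 0.0088 without both wells numbered 3; the cause was not tested. The 3861 changed genes were 5023 with the replicate block, which moved the call of Fcgr4 among the 9 genes and of no other, 3445 with DESeq2 and 2725 to 3654 without 1 library. With scaling by total count 60.8% of calls were higher, against 45.3%. A group of 3 wells limits these ratios to a p of 0.1, and Fcrl5, Ms4a2 and Trem1 had few counts in some wells.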
